A study of Mus musculus with 14 samples.

Results

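The genes described here are the Fringe genes Lfng, Mfng and Rfng and 4 other modifiers of the Notch pathway, Nrarp, Rbpj, Numb and Maml1. They are 7 of 21757 protein-coding genes. They were chosen by name, and the peaks of 6 consensus lists that overlap their GENCODE canonical transcript in GRCm39, extended by 20 kb on both sides, were taken. This gave 111 of the 175565 listed peaks. The rule used positions only, and no signal values.

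CUT&Tag, in which the transposase Tn5 is directed to an antibody on chromatin, was performed on cultured muscle stem cells (MuSCs) of female 9-week-old C57BL/6N(Tg(Pax7-EGFP)Tajb) mice, sorted for GFP from the PAX7 reporter. All cells were kept at 3% O2, were starved for 6 h in serum-free medium with 200 ng/mL BMPR1A-Fc, a soluble receptor that takes up BMPs, and were fixed for 2 min with formaldehyde at 0.1%. BMP6-stimulated cells received 100 ng/mL BMP6 for 1 h, and control cells (named vehicle in the plots) received 4 mM HCl with 0.1% BSA. Antibodies against phosphorylated SMAD1/5/9 (pSMAD1/5/9), SMAD4 and acetylated H3K27 (H3K27ac, a mark of active promoters and enhancers) were used on 100000 cells each, with 2 biological replicates per antibody and condition, which were merged into 1 list. Enrichment by GFP relies on the Pax7 transgene, and how many mice were pooled is not given in the sources used here.

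Notch receptors are cleaved when they meet a ligand on a neighbouring cell, and the released intracellular domain joins the DNA-binding protein RBPJ and a Mastermind coactivator such as MAML1 to activate target genes. Fringe proteins are glycosyltransferases that extend O-fucose on the receptor and so change which ligands it answers to. NRARP is an ankyrin repeat protein that limits the Notch transcription complex, and NUMB is an adaptor that promotes the uptake and degradation of Notch. In muscle, Notch signalling keeps MuSCs undifferentiated. BMPs bind receptors that phosphorylate SMAD1/5/9, which enters the nucleus with SMAD4.

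Windows of up to 200 bp around the summit are printed for the 3 pSMAD1/5/9 peaks of Lfng, for the strongest pSMAD1/5/9 peak of the set, at Rbpj, and for SMAD4 peaks near the TSS of Rbpj, Mfng, Nrarp and Maml1. They read 5′ to 3′ on the plus strand of GRCm39, which is opposite to the direction of transcription for Mfng and Maml1. Annotated UTRs were left out, which shortened the windows at the TSS of Lfng (173 bp), Mfng (141 bp) and Maml1 (189 bp). Capitals mark matches, on either strand, to GGAGCC or GGCGCC (a BMP-responsive SMAD site), GTCTAGAC (a SMAD palindrome), CAGCTG (an E-box), ATGGGAA or GTGGGAA (an RBPJ motif) and TGACTCA or TGAGTCA (an AP-1 motif).
Lfng, upstream pSMAD1/5/9 peak (chr5:140585909-140586108): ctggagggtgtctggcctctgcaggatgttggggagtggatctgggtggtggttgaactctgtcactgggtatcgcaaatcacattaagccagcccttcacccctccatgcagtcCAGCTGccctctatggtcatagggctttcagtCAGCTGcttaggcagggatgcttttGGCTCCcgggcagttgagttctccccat
Lfng, TSS pSMAD1/5/9 peak (chr5:140592902-140593074): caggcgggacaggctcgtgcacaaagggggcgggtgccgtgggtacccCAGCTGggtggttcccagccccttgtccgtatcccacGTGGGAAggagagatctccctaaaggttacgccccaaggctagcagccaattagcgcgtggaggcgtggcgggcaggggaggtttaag
Lfng, intronic pSMAD1/5/9 peak (chr5:140596912-140597111): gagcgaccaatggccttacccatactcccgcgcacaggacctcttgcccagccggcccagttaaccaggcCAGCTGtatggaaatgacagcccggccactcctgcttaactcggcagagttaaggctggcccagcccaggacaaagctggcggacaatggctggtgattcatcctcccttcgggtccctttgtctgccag
Rbpj, pSMAD1/5/9 peak (chr5:53746911-53747110): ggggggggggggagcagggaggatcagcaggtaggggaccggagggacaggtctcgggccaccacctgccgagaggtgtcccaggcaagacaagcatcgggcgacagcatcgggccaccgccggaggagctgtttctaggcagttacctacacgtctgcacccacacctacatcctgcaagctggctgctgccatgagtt
Rbpj, upstream SMAD4 peak (chr5:53746562-53746761): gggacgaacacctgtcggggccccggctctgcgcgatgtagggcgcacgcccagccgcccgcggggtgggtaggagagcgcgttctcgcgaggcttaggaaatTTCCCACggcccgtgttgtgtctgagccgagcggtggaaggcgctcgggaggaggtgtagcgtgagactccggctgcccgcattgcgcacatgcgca
Mfng, TSS SMAD4 peak (chr15:78657719-78657859): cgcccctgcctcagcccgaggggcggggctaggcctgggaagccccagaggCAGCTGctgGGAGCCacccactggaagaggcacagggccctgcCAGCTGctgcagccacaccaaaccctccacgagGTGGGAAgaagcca
Nrarp, SMAD4 peak (chr2:25070521-25070720): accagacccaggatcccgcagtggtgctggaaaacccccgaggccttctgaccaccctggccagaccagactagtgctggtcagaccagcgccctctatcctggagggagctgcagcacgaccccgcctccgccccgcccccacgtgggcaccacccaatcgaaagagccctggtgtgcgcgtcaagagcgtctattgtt
Maml1, SMAD4 peak just upstream of the TSS (chr11:50183191-50183379): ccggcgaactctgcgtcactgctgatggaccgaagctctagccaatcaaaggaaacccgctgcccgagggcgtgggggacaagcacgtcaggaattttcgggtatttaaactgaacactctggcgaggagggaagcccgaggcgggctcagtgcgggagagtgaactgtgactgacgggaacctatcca

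CAGCTG, the E-box form bound by myogenic factors, occurred in the printed windows of all 3 Lfng peaks and of Mfng. The upstream Lfng window held it at 16 and 48 bp past the summit and GGCTCC, the reverse complement of GGAGCC, at 73 bp. The Lfng TSS window held an RBPJ motif that began 14 bp before the summit. At Rbpj itself, the SMAD4 window held an RBPJ motif 4 bp past the summit, and the pSMAD1/5/9 window held none of the motifs. The windows of Nrarp and Maml1 also held none. The whole pSMAD1/5/9 peak of Rbpj, 2034 bp wide, held 6 BMP-responsive SMAD sites, 1 RBPJ motif and 2 AP-1 motifs. The median width in this list was 582 bp. The GC content of the Rbpj peak was 64.0%, against a mean of 56.0% for the list, and no number expected for its width and GC content was computed. The whole Nrarp peak held 1 BMP-responsive SMAD site and 1 E-box, and that of Maml1 held 1 RBPJ motif and 1 AP-1 motif. Over all 9 pSMAD1/5/9 peaks at the genes, 6 windows of 200 bp held CAGCTG, where 31.1% of the windows of the whole list did, and 1 held the BMP-responsive SMAD site, against 30.1%. In the whole peaks these counts were 7 of 9 against 55.1% and 6 of 9 against 58.3%. The 14 SMAD4 windows of BMP6-stimulated cells held an RBPJ motif in 3 cases, against 8.66% of the list, and the whole peaks in 4, against 21.9%. Several of these windows overlap, since both factors were listed at many of the same sites, and a match is a description of letters only.

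No test between the conditions was run, because a list gives signal only at the peaks that passed in its own condition, and the signals of different lists have no stated common scale. The authors brought the libraries of an antibody to the same total depth, but the lists hold no read counts, and the number of reads behind a given peak is unknown. A gene without a peak is one where none passed an irreproducible discovery rate (IDR) of 0.05. Peaks were ranked by signal within their list, and the percent from the top is the rank divided by the length of the list, so that a low percent is a strong peak. The lists held 7339 and 949 pSMAD1/5/9 peaks, 12860 and 8577 SMAD4 peaks, and 78050 and 67790 H3K27ac peaks in BMP6-stimulated and control cells. H3K27ac covered the TSS of 8 of 8 MuSC markers and of 2 of 3 myonuclear markers in both conditions. Over all genes, it covered the TSS of 51.4% after BMP6 and 49.5% in control cells. It covered none of the 9 markers of endothelium, leukocytes and fibro-adipogenic cells.

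After BMP6, pSMAD1/5/9 peaks were listed at 5 of the 7 genes and SMAD4 peaks at 6, while control cells had no pSMAD1/5/9 peak at any of them. Lfng, Mfng, Rbpj, Numb and Maml1 held 9 pSMAD1/5/9 peaks in all. Of all protein-coding genes, 29.1% had such a peak after BMP6, 5.97% had one in control cells and 23.5% had one only after BMP6. When the BMP6 list was cut to its 949 strongest peaks, the length of the control list, 1 peak at 1 gene, Rbpj, was left. SMAD4 peaks numbered 14 at 6 genes after BMP6 (39.3% of all genes) and 5 at 4 genes in control cells (30.8%). Rfng was the gene without a SMAD peak in any list, as were 53.9% of all genes. Among the 10775 genes with H3K27ac over the TSS in control cells, 45.4% had a pSMAD1/5/9 peak and 59.7% a SMAD4 peak after BMP6. Of the 7 genes, 5 belong to this set, all but Mfng and Nrarp, and 4 of these 5 had a peak of each factor.

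More SMAD4 peaks were listed after BMP6 than in control cells at 6 of the 7 genes, against 24% of all genes. The whole SMAD4 list was also longer after BMP6. With it cut to the length of the control list, Lfng, Nrarp and Rbpj still had more peaks than in control cells. Mfng and Numb then had equal numbers, and Maml1 had fewer. In the full lists, 35.9% of genes with H3K27ac over the TSS in control cells had more SMAD4 peaks after BMP6. Of the 5 such genes here, 4 did. Lfng and Nrarp had SMAD4 peaks only after BMP6 (12.8% of all genes). H3K27ac peaks were listed at all 7 genes in both conditions (74.8% and 73.4% of all genes), 46 after BMP6 and 37 in control cells, and were more numerous after BMP6 at 5 of them (35.6%). The whole H3K27ac list was also longer after BMP6. With it cut to the length of the control list, numbers were higher at Lfng, Nrarp and Maml1. They were equal at Mfng, Rfng and Numb, and lower at Rbpj. The TSS was covered by pSMAD1/5/9 at 3 genes after BMP6, Lfng, Rbpj and Numb (8.84% of all genes). SMAD4 covered it at 5 genes after BMP6 (13.1%) and at 2, Numb and Maml1, in control cells (8.8%), and at 4 genes only after BMP6 (6.83%), which were Lfng, Mfng, Nrarp and Rbpj. This count depends on the thresholds. The Mfng peak, at rank 8967, lay past the length of the control list (8577), and the Mfng and Nrarp peaks did not pass an IDR of 0.01. Rbpj had a control SMAD4 peak near the TSS, with the summit 1116 bp upstream. H3K27ac covered the TSS of all 7 after BMP6 (51.4%) and of 5 in control cells (49.5%). Per 100 kb of the extended regions, the 7 genes held 1.66 pSMAD1/5/9 peaks after BMP6, and all genes 0.587. For SMAD4 after BMP6 these densities were 2.58 and 0.973. All genes here include those without H3K27ac over the TSS, and no density was taken for genes with it. Lfng and Numb held 3 of the pSMAD1/5/9 peaks each.

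**Figure D1:**
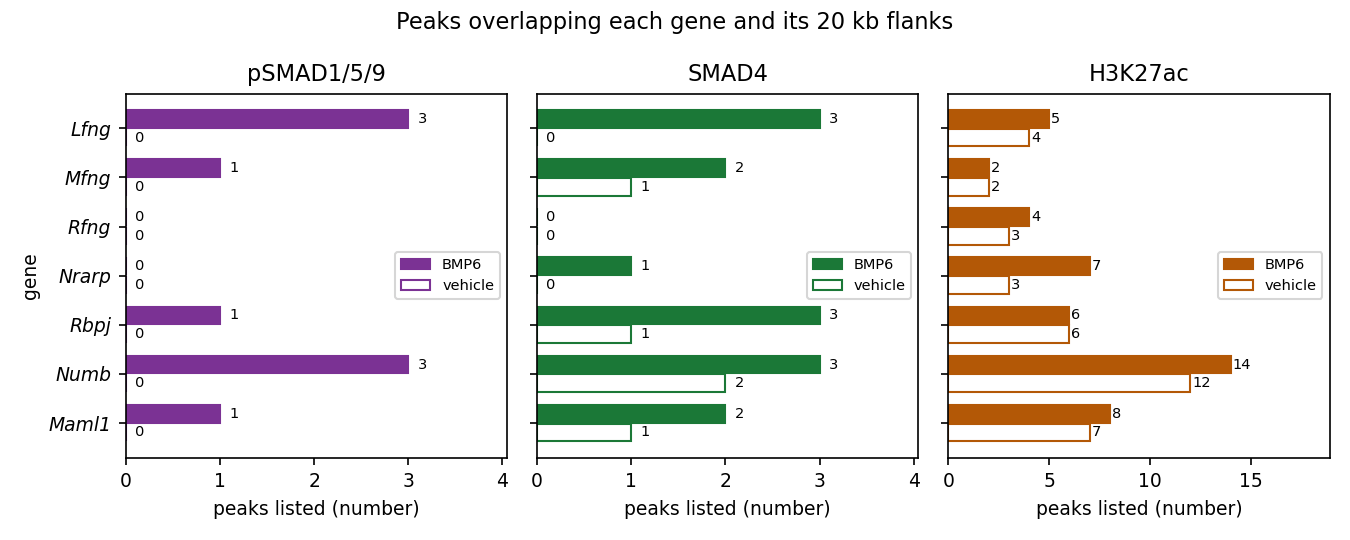
Number of consensus peaks (x axis) that overlap each gene or its 20 kb flanks (y axis), for pSMAD1/5/9, SMAD4 and H3K27ac, with filled bars for BMP6-stimulated cells and open bars for control (vehicle) cells. Lfng and Numb have 3 pSMAD1/5/9 peaks each after BMP6, no gene has one in control cells, and Rfng has no SMAD peak.

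Each pSMAD1/5/9 site was shared with SMAD4, but some SMAD4 sites lacked pSMAD1/5/9. All 9 pSMAD1/5/9 peaks overlapped SMAD4 after BMP6 (100%, Wilson 95% interval 70.1 to 100), against 73.2% of the list, and all 9 overlapped H3K27ac, against 98.2%. None overlapped a pSMAD1/5/9 peak of control cells (upper bound 29.9%), where 11.4% of the list did. Of the 14 SMAD4 peaks after BMP6, 10 overlapped pSMAD1/5/9 (71.4%, 45.4 to 88.3), against 42.7% of the list, all 14 overlapped H3K27ac, against 95.7%, and 5 overlapped a SMAD4 peak of control cells (35.7%, 16.3 to 61.2), against 45.5%. All 5 SMAD4 peaks of control cells overlapped a peak after BMP6 (69.7% of that list). Of the H3K27ac peaks, 32 of 46 after BMP6 (72% of the list) and 32 of 37 in control cells (86.8%) were shared. The intervals cover counting error over peaks only.

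Lfng, the Fringe gene that acts in segmentation and in many Notch-dependent tissues, (ENSMUSG00000029570.7) spans positions 140593075 to 140601300 of chromosome 5 on the plus strand. After BMP6 it held pSMAD1/5/9 peaks 7067 bp upstream of the TSS, over the TSS with the summit 74 bp upstream, and in intron 1 with the summit 3936 bp downstream. They ranked 5472, 2987 and 4482 of 7339, or 74.6%, 40.7% and 61.1% from the top, so the TSS peak was the strongest and all lay in the middle or lower part of the list. By single replicate columns the TSS peak ranked 3826 and 2119.

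SMAD4 followed at the same 3 places, with summits at 7116 bp upstream, 76 bp upstream and 3975 bp downstream. These peaks ranked 8190, 5437 and 6299 of 12860. The replicate columns differed most for the intronic peak, which ranked 4909 in one and 10713 in the other. No SMAD4 peak was listed near Lfng in control cells.

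H3K27ac at Lfng was present in control cells at the TSS, in intron 1 and downstream of the gene. The peak over the TSS after BMP6 ranked 32041 of 78050 (41.1% from the top) and spanned 2520 bp, whereas control cells had 2 shorter peaks there, at 56716 and 47681 of 67790 (83.7% and 70.3%). Taken against the stronger of these, the position moved by −29.3 percentage points, and 4.73% of all shared H3K27ac peaks moved further up. However, the summit of that control peak lay in intron 1, 1052 bp past the TSS. A single wide peak is thus set against 1 of 2 peaks, of 700 and 1300 bp, that it spans. The intronic peak with its summit 4018 bp past the TSS after BMP6 lay at 23.3%, against 26.1% in control cells, which is near the median movement of −3.14 points. The H3K27ac peaks at 7088 and 2958 bp upstream were listed only after BMP6. The first of them coincided with the upstream SMAD peaks.

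Mfng, the second Fringe gene, (ENSMUSG00000018169.14) spans positions 78640082 to 78657702 of chromosome 15 on the minus strand. Its pSMAD1/5/9 peak was in intron 4, with the summit 9650 bp past the TSS, and ranked 4270 of 7339 (58.2%). SMAD4 was listed at this site in both conditions. It ranked 3757 of 12860 after BMP6 (29.2%, and 34.0% and 22.6% in the replicate columns) and 1039 of 8577 in control cells (12.1%, and 10.2% and 20.1%). The site therefore stood lower in the list after BMP6, by 17.1 points, and 88.1% of all shared SMAD4 peaks had a lower value of this difference.

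At the Mfng TSS the order was the reverse. A SMAD4 peak with its summit 57 bp upstream was listed only after BMP6, at rank 8967 (69.7%), and a H3K27ac peak 98 bp upstream was listed only after BMP6, at rank 61058 (78.2%). Both were in the weaker part of their lists. H3K27ac over a TSS after BMP6 and not in control cells occurred at 2 of the 7 genes, Mfng and Nrarp, and at 2.69% of all genes. A control H3K27ac peak 17289 bp upstream of Mfng lay within Card10, a gene named here after its values had been seen.

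Rfng (ENSMUSG00000025158.9), at positions 120671574 to 120675210 of chromosome 11 on the minus strand, had H3K27ac peaks but no SMAD peak. Over its TSS, H3K27ac ranked 39239 of 78050 after BMP6 (50.3%) and 32803 of 67790 in control cells (48.4%). The replicate columns spanned 43.5% to 63.0% after BMP6 and 35.9% to 72.4% in control cells, wider than the difference between the conditions. The other H3K27ac peaks of the region lay nearer to the TSS of Dus1l or Hmga1b than to that of Rfng, and these genes were named after their values had been seen.

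The genes with the most similar pattern over the 6 lists, by the distance between the best percent per list with 100 for a list without a peak, were Asf1b and Prkaca for Mfng (both 9.27) and C4a and Zfp40 for Rfng (0.488 and 0.542). The pair for Mfng had the same values, since their regions share the peaks.

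**Figure D2:**
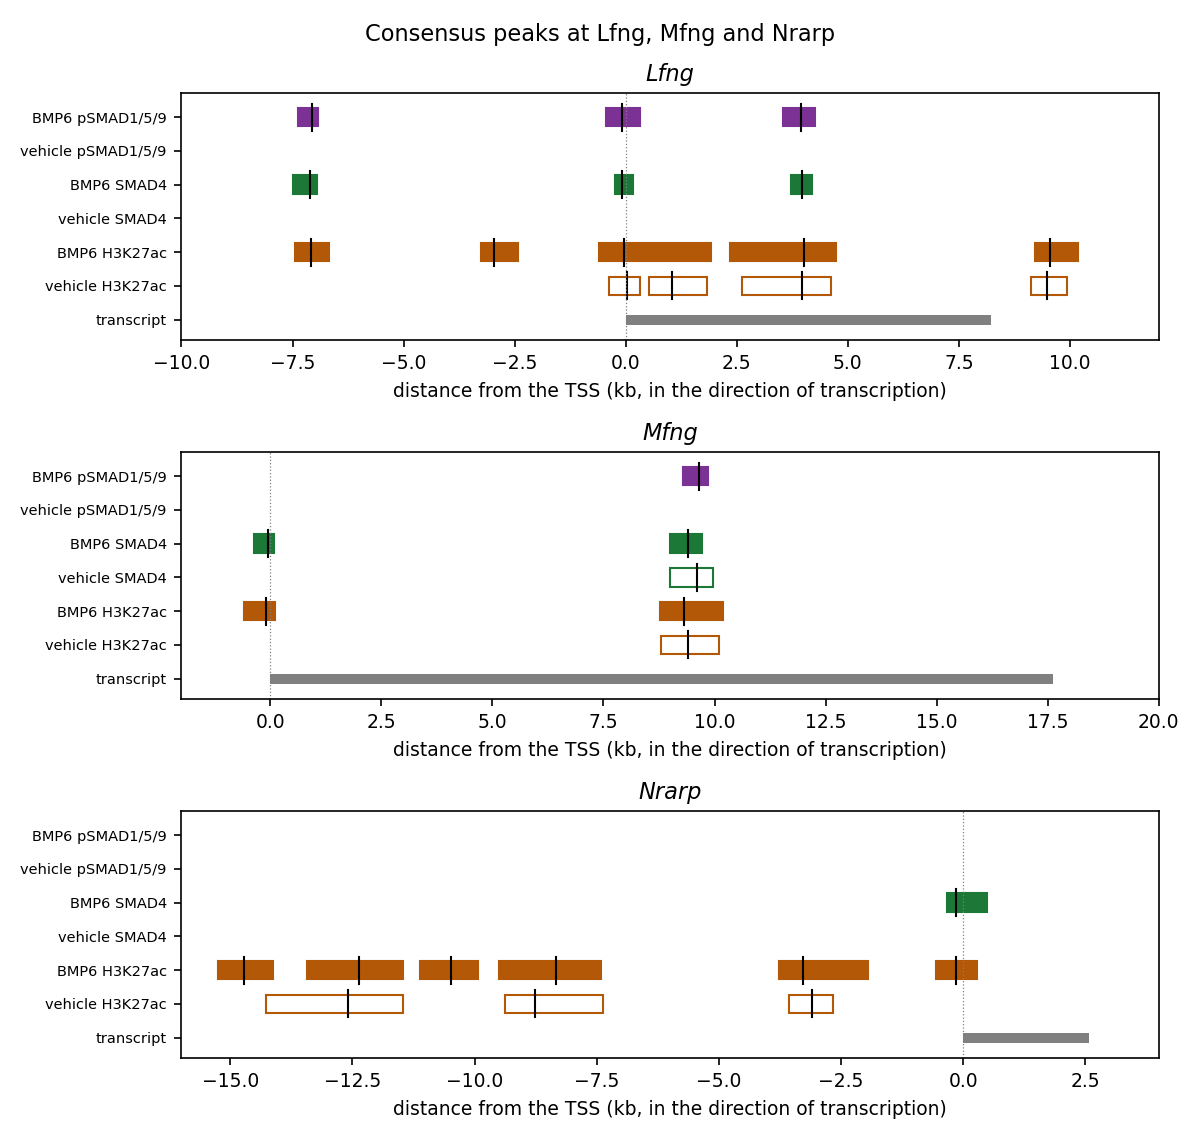
Consensus peaks as bars and their summits as black lines at Lfng, Mfng and Nrarp, by distance from the TSS in kb along the direction of transcription (x axis), with 1 row per list (filled for BMP6, open for vehicle) and the transcript in grey. SMAD peaks of Lfng line up at 3 places and are absent from the vehicle rows, and Mfng has SMAD4 in intron 4 in both conditions.

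Nrarp, an intronless gene (ENSMUSG00000078202.4) at positions 25070770 to 25073351 of chromosome 2 on the plus strand, had no pSMAD1/5/9 peak. A SMAD4 peak over its TSS, with the summit 150 bp upstream, was listed only after BMP6 and ranked 5206 of 12860 (40.5%). Its replicate columns ranked 4225 and 7903. Nrarp is a target of Notch as well as its inhibitor.

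H3K27ac at Nrarp comprised 3 peaks in control cells and 7 after BMP6, the widest difference in number among the 7 genes. A peak 141 bp upstream that covered the TSS was listed only after BMP6 and ranked 45273 of 78050, with 30790 and 63862 in the replicate columns. The strongest H3K27ac peak lay 12361 bp upstream at 16.4% after BMP6 and 12600 bp upstream at 26.3% in control cells. The next, 8343 bp upstream, was at 23.4% against 28.8%. The added peaks comprised one at 10485 bp upstream, and one at the TSS of Tor4a, a neighbour named after its values had been seen. A further peak 14720 bp upstream overlapped the edge of the control peak at 12600 bp.

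Rbpj (ENSMUSG00000039191.14), at positions 53747813 to 53814704 of chromosome 5 on the plus strand, held the strongest pSMAD1/5/9 peak of the 7 genes. It ranked 248 of 7339 (3.38% from the top) and 314 and 187 in the replicate columns. The peak was 2034 bp wide, covered the TSS and had its summit 803 bp upstream. In control cells no pSMAD1/5/9 peak was listed. Other basic transcripts of Rbpj start up to 34637 bp further upstream, so this TSS is one of several.

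Within the wide pSMAD1/5/9 peak and just past it, SMAD4 was listed at 3 places after BMP6. The summit 1152 bp upstream ranked 2692 of 12860 (20.9%), the one 2 bp upstream 5208 (40.5%), and the one 939 bp into intron 1 9001 (70.0%). In control cells only the upstream site was listed, with the summit at 1116 bp, and ranked 6631 of 8577 (77.3%). Both replicate columns were higher in the list after BMP6 (21.7% and 21.2%) than in control cells (81.3% and 64.9%). The movement of −56.4 points compares with a median of −4.46 points over 5852 shared SMAD4 peaks, of which 2.51% moved further up.

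H3K27ac over the Rbpj TSS was among the stronger peaks of both lists, at 6.95% after BMP6 and 9.83% in control cells. Its width was 5740 and 4800 bp. This movement was close to the median of shared peaks. Both conditions had 6 H3K27ac peaks at the gene, of which those in introns 1, 2 and 3 with summits 15186, 41087 and 46562 bp past the TSS were shared.

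Numb (ENSMUSG00000021224.17), at positions 83840808 to 83968708 of chromosome 12 on the minus strand, held 3 pSMAD1/5/9 peaks after BMP6. The one at the TSS, with the summit 161 bp upstream, ranked 3041 of 7339 (41.4%). Its replicate columns were far apart, at ranks 5317 and 1512. The strongest, rank 1461 (19.9%, with ranks 1616 and 1398 in the columns), lay 1894 bp past the end of the Numb transcript, and a weaker one, rank 6689, lay 1102 bp past it.

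Both of these downstream peaks lay within an annotated exon of Papln, which encodes the extracellular matrix protein papilin and whose TSS, 28572 bp from the strongest summit, was nearer than that of Numb. Whether they act on Numb or Papln was not tested. SMAD4 showed the same arrangement. Its TSS peak ranked 2003 of 12860 after BMP6 (15.6%) and 1771 of 8577 in control cells (20.6%), a movement of −5.07 points that is close to the median. The downstream site ranked 3740 after BMP6 (29.1%) and 4196 in control cells (48.9%), but the replicate columns after BMP6 were 53.1% and 12.1% and spanned the control values.

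H3K27ac over the Numb TSS ranked 4982 of 78050 after BMP6 (6.38%) and 2912 of 67790 in control cells (4.30%), so it was strong in both. Numb had 14 and 12 H3K27ac peaks. Of the shared ones, that in Papln 133175 bp from the Numb TSS moved furthest, from 88.0% in control cells to 27.5% after BMP6, although the summit of the overlapping control peak lay elsewhere, 131851 bp from the TSS.

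Maml1 (ENSMUSG00000050567.18), at positions 50146461 to 50183190 of chromosome 11 on the minus strand, had its pSMAD1/5/9 peak 2848 bp past the end of the transcript. It ranked 5046 of 7339 (68.8%). The nearest TSS was that of Ltc4s, which encodes leukotriene C4 synthase, at 14254 bp, against 39577 bp to that of Maml1. A SMAD4 peak at this site ranked 10985 of 12860 (85.4%) and was absent from the control list.

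Near the Maml1 TSS, with summits 89 bp upstream after BMP6 and 13 bp upstream in control cells, SMAD4 stood lower in the list after BMP6, at rank 9996 of 12860 (77.7%, and 88.4% and 53.9% in the replicate columns), than in control cells, at 5648 of 8577 (65.9%, and 57.6% and 72.9%). The replicate columns of the conditions overlapped. H3K27ac over the TSS was strong in both, at rank 8603 of 78050 after BMP6 and 3991 of 67790 in control cells.

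**Figure D3:**
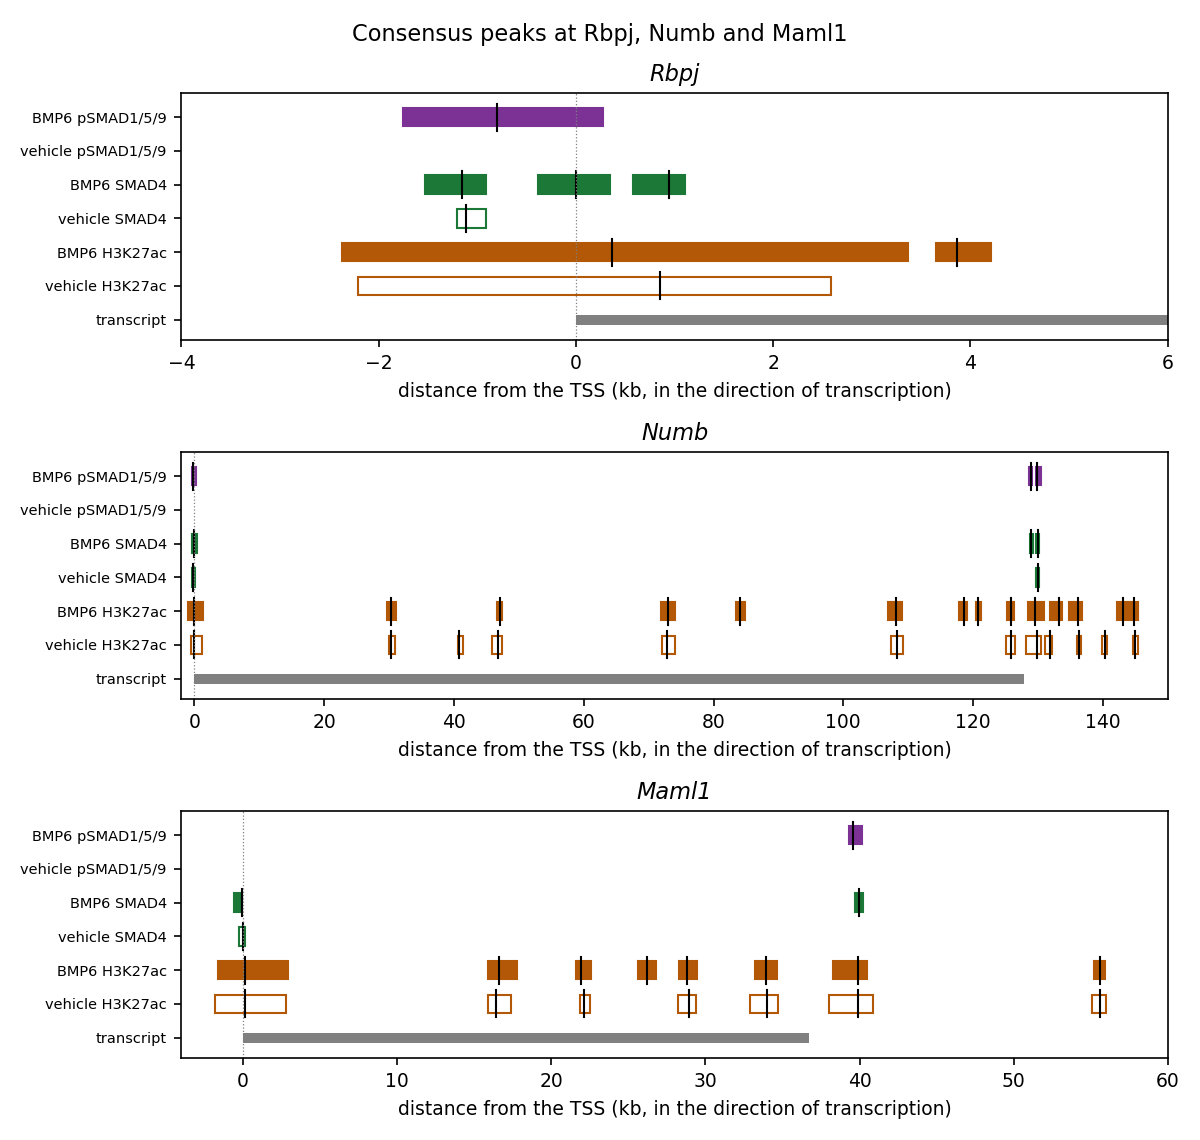
Consensus peaks and summits at Rbpj, Numb and Maml1, drawn by distance from the TSS in kb along the direction of transcription (x axis), with 1 row per list (filled for BMP6, open for vehicle) and the transcript in grey. Only the part of Rbpj around its TSS is shown, where 1 wide pSMAD1/5/9 peak spans 2 of the 3 SMAD4 peaks, and the pSMAD1/5/9 peaks away from the TSS of Numb and Maml1 lie past the transcripts.

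The replicate columns set how far the ranks can be read. The Rbpj pSMAD1/5/9 peak lay at 4.28% and 2.55% in the 2 columns. The pSMAD1/5/9 peak at the Numb TSS lay at 72.4% and 20.6%, and the SMAD4 peak in Lfng intron 1 at 38.2% and 83.3%, so these positions are less certain. At an IDR of 0.01, 4 of the 9 pSMAD1/5/9 peaks and 5 of the 14 SMAD4 peaks of BMP6-stimulated cells passed. Of the 5 SMAD4 peaks of control cells, 3 passed. In the same order, 3674 of 7339, 6322 of 12860 and 3575 of 8577 peaks of the whole lists passed.

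**Figure D4:**
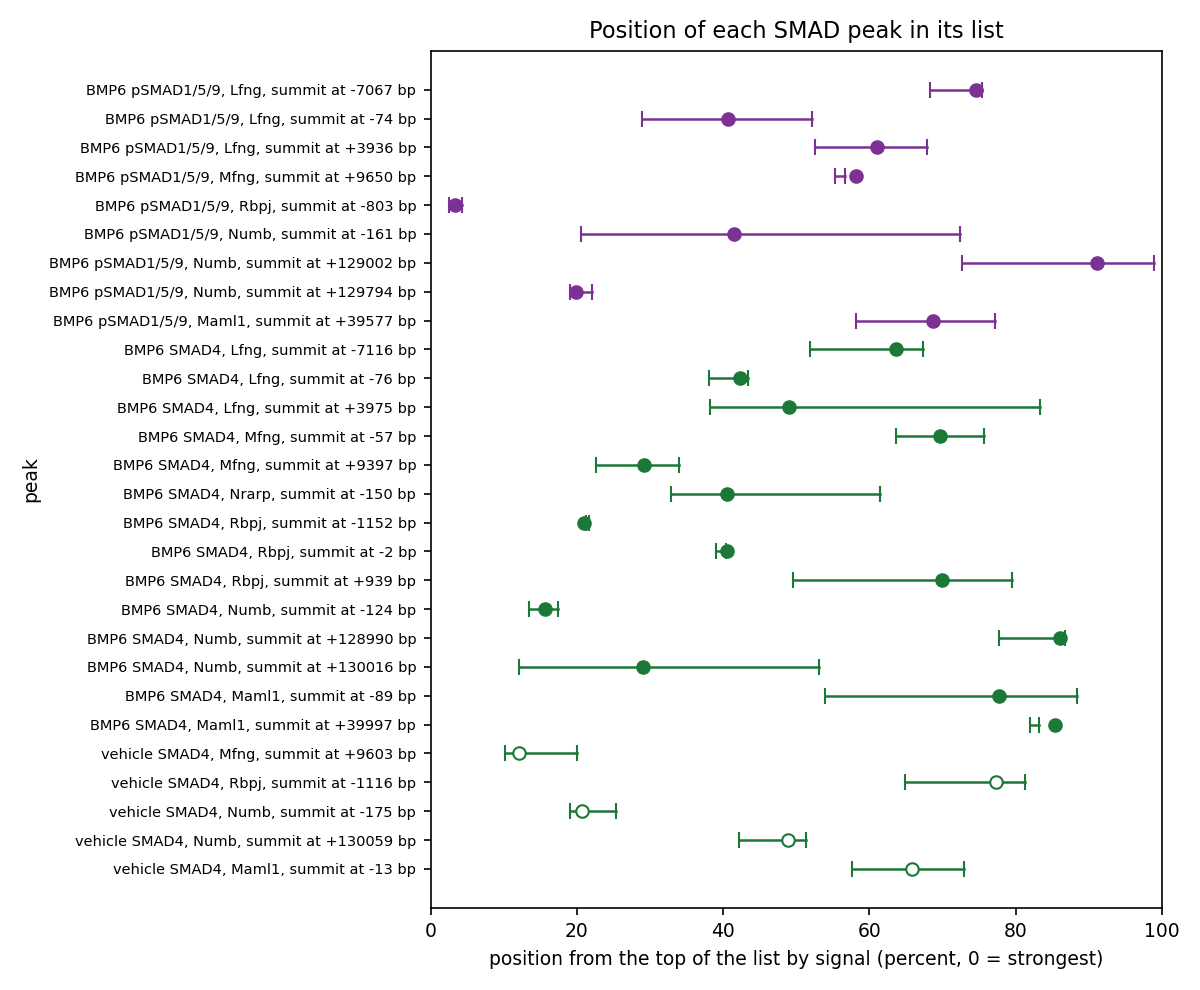
Percent from the top of the list by signal (x axis, low is strong) for each SMAD peak at the genes (y axis), as a point for the consensus (filled for BMP6, open for vehicle) and tick marks joined by a line for both replicate columns. The Rbpj pSMAD1/5/9 peak lies at 3.38% and the other pSMAD1/5/9 peaks between 19.9% and 91.1%.

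Of the shared SMAD4 sites, that of Rbpj stood higher in the list after BMP6 and that of Mfng lower, in both replicate columns. For Mfng the gap was narrow. Its nearest columns, 22.6% after BMP6 and 20.1% in control cells, were closer than the columns within either condition. At the downstream site of Numb and near the Maml1 TSS the columns of the conditions overlapped, so no direction can be given, and the Numb TSS moved by about the median. A movement in percent compares positions in 2 lists of different length and is not a fold change of binding.

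**Figure D5:**
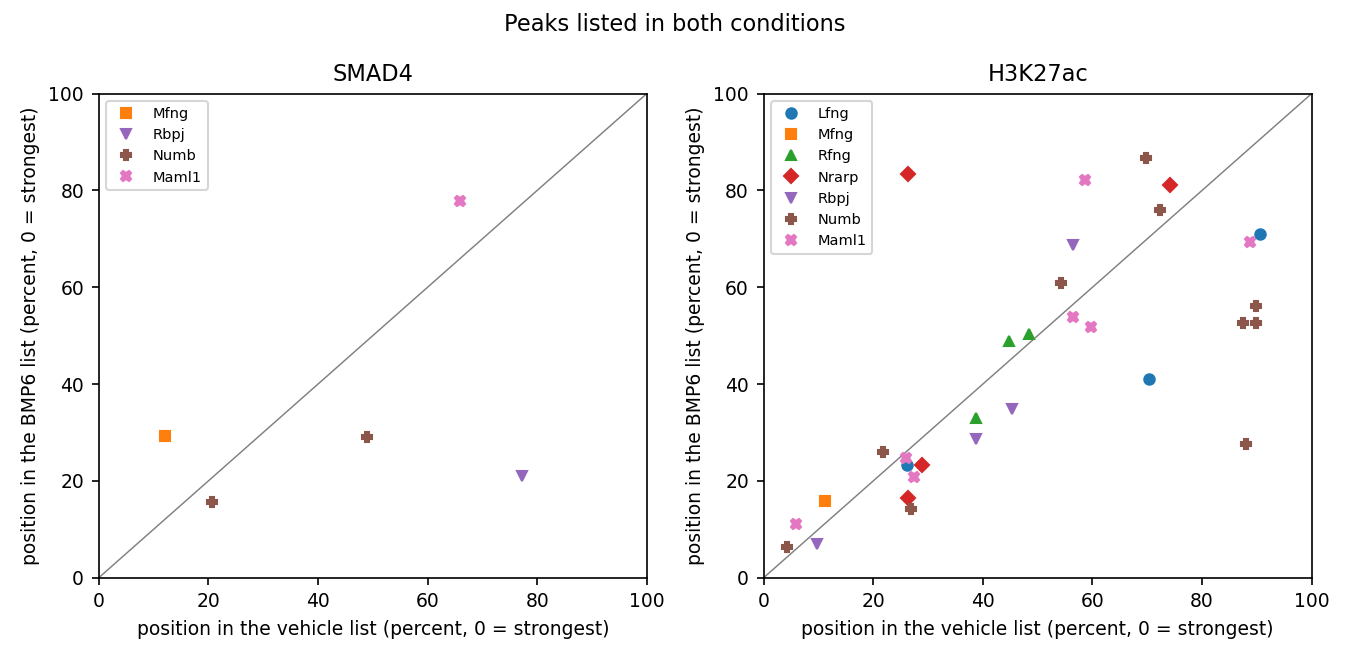
Percent from the top of the BMP6 list (y axis) against the vehicle list (x axis) for SMAD4 and H3K27ac peaks at the genes listed in both, with a symbol per gene and a grey line of equal position. Points under the line stand higher in the BMP6 list, and in the SMAD4 plot the Rbpj site lies farthest from it, at 20.9% against 77.3%.

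Among 43 other genes of the Notch pathway, 19 had a pSMAD1/5/9 peak after BMP6 (29.1% of all genes) and 6 in control cells (5.97%). A peak only after BMP6 was listed at 13 (23.5%). SMAD4 peaks were listed at 30 and 29 of them (39.3% and 30.8%), with more after BMP6 at 15 (24%). H3K27ac was listed at all 43 in both conditions (74.8% and 73.4%). In control cells it covered the TSS of 37. Of these 37, 17 had a pSMAD1/5/9 peak after BMP6, against 45.4% of all genes with such H3K27ac. A SMAD4 peak was listed at 27, against 59.7%. The strongest pSMAD1/5/9 peaks of the 43 genes after BMP6 were at the ligand gene Jag2 (rank 147 of 7339), the effector genes Heyl (167) and Hes6 (171), the receptor gene Notch4 (199) and Neurl1a (326), which encodes a ubiquitin ligase. The Rbpj peak at rank 248 stood among these, and those of the other genes described here ranked lower.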

How the data were processed

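CUT&Tag of pSMAD1/5/9, SMAD4 and H3K27ac in mouse MuSCs was analysed from 6 consensus lists made of 12 samples, grouped by the labels. The other 2 libraries lacked a primary antibody and were not used here. Per the methods, the authors brought all libraries of an antibody to the same depth, aligned reads with Bowtie2 2.5.4 to GRCm39, filtered with SAMtools 1.21, called peaks per replicate with JAMM and merged replicates with IDR at 0.05. The deposited signal is a score of the peak caller with no stated scale, and the authors give the IDR as −log10. The signal equalled the sum of both replicate columns within 0.001 in all 175565 peaks. These columns carry no replicate number, and 36 further replicate columns were not used. Start, end and summit are deposited positions.

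Genes were canonical transcripts of GENCODE, peaks were shared at 1 bp, and tables were made with Python 3.11.15, pandas 2.3.3, scipy 1.17.1 and pysam 0.24.0. Overlap counting was tested on simulated data. The members, the named genes (these genes, genes with a TSS nearer to a strongest SMAD peak, the 2 most similar genes outside 100 kb for each Fringe gene, and the 5 strongest of the Notch list), the lists and the motifs were chosen with earlier results of these data known. The most similar genes for Lfng are not reported here. Alternatives covered the IDR, region, transcripts, list length, merging, overlap, replicate column, autosomes and motif window.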

Additional observations from a re-analysis of the deposited data

How the results depend on the processing

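Of 104 alternative values for summaries, 75 stayed within 1.5 times the count or within the interval or replicate spread, and 29 did not. In the order pSMAD1/5/9 after BMP6, SMAD4 after BMP6 and SMAD4 in control cells, an IDR of 0.01 left 4, 5 and 3 peaks (control SMAD4 at 2 genes), the transcript body 5, 8 and 3, and the window of 1.5 kb before and 0.5 kb after the TSS 3 (at 3 genes), 7 and 3. With 50 kb flanks there were 28 SMAD4 peaks after BMP6, 10 in control cells and 1 control pSMAD1/5/9 peak, at 1 gene. For H3K27ac after BMP6 and in control cells, the body left 27 and 23 peaks and the TSS window 7 and 5. With BMP6 lists cut to the length of the control lists, 1 pSMAD1/5/9 peak at 1 gene, Rbpj, 9 SMAD4 peaks and 42 H3K27ac peaks remained. The SMAD4 peaks of Lfng and Nrarp were kept, Mfng and Numb had as many as in control cells, and Maml1 had none. The number of genes with pSMAD1/5/9 therefore depends on the length of that list. The median percent from the top of the strongest peaks ranged from 28.9 to 52.1 for pSMAD1/5/9, 30.3 to 33.4 for SMAD4 after BMP6 and 38.4 to 45.1 for SMAD4 in control cells by single replicate columns, and was 29.6 and 37.7 for SMAD4 when ranked by IDR. In windows of 200 bp, 2, 3 and 0 of the 8 printed peaks held the BMP-responsive SMAD site, the RBPJ motif and the AP-1 motif, against 7, 5 and 3 in whole peaks. Shares of overlap stayed within their intervals under each alternative. No paired analysis was possible because the replicate columns carry no replicate number and no test between conditions was run.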
